A study of Mus musculus with 354 samples.

Results

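The cytosolic ribosomal proteins are the protein subunits that, with ribosomal RNA, form the large and small subunits of the ribosome in the cytoplasm. They were taken here as all gene symbols on the array that begin with Rpl or Rps followed by a digit, or are Rplp2 or Rpsa, without the S6 kinase genes and pseudogenes. Each gene was read from its probe set with the highest mean. This gave 39 genes of 16670 named genes on the array, read from 53 probe sets. The name rule also takes in 4 paralogues (Rpl3l, Rpl7l1, Rpl39l and Rps27l) and Rps19bp1, which binds a ribosomal protein and is not a subunit. Rplp0, Rplp1, Rpl10 and Rps27a are not analysed here, nor are 10 probe sets that name several genes including a ribosomal protein. The members hold 21 large-subunit and 13 small-subunit proteins, and the results do not cover ribosomal proteins outside this set.

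Liver RNA came from 354 male mice, 1 array per animal, of 45 inbred strains of the Collaborative Cross, a panel bred from several founder strains. In each strain some animals received the vehicle (179 in all) and others tolvaptan (175 in all), an oral blocker of the vasopressin V2 receptor used in kidney disease and low blood sodium. All were 8 to 10 weeks old, had fasted for about 18 h, and were sampled 24 h after treatment. The dose is not used because its label has no unit, and 85 of the 90 pairings of a strain with a treatment had 4 animals each.

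Ribosomal protein genes are among the most active of most cells, since subunits are needed in nearly equal amounts. Their messages mostly begin with a run of pyrimidines, the 5′ terminal oligopyrimidine tract, through which growth signalling by mTOR controls their translation more than their abundance. In liver, ribosome number is known to follow feeding, growth and regeneration.

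Values are log2 probe-set intensities, so a difference of 1 is a doubling. They rank animals and strains for 1 gene, and levels of different genes are not compared. A strain difference here is a difference in probe-set signal. Whether it lies in RNA or in how the founders' alleles match the probes was not tested. Whether paralogues or pseudogenes of similar sequence add to the signal of a probe set was not tested either. Over the whole table the array medians lay between 2.81 and 3.02, typically 2.89, and a gene was kept for testing when it lay above the array median in at least 4 arrays. This kept 14125 genes, among them 35 of the 39 members. The members left out were Rpl17, Rps6 (the target of S6 kinase), Rpsa (also known as the laminin receptor) and the paralogue Rpl39l, whose group means lay between 2.03 and 2.24. Another 9 kept members had both group means below the typical array median, among them Rpl11, Rpl27a and Rpl21. Whether such low values reflect little RNA or a probe set that reports it poorly was not tested. The other extreme was 12 members with a mean of at least 9, and 19 members lay above the array median in every array. A check of strain identity over 500 strain-informative probe sets found 34 arrays, 27 of vehicle and 7 of tolvaptan animals in 19 strains, whose correlation with their labelled strain was at most 0.325, against at least 0.649 for the rest. Below these are called off-strain arrays, and for several results that rest on them the values without them are also given. The hepatocyte markers Alb, Apoa1 and Ttr had vehicle means of 13.6, 13.7 and 13.2.

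The start of 6 members is shown, each tied to a result or part named here. Rpl14, Rpl15 and Rps21 differed widely between strains, Rps24 had one of the highest averaged differences, Rpl13a was called in 1 strain, and Rplp2 belongs to the ribosomal stalk. Each window runs from 30 bases before to 30 bases from the start of the gene in RefSeq (GRCm38.p6), on the gene's strand. Capitals mark its longest run of C and T. The windows are chr9:120571487-120571546 (plus) for Rpl14, chr14:18270957-18271016 (minus) for Rpl15, chr2:180257349-180257408 (plus) for Rps21, chr14:24490648-24490707 (plus) for Rps24, chr7:45128716-45128775 (minus) for Rpl13a and chr7:141447621-141447680 (plus) for Rplp2.
Rpl14: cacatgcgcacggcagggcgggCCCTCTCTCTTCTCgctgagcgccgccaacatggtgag
Rpl15: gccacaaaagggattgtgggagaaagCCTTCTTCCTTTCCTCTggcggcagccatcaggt
Rps21: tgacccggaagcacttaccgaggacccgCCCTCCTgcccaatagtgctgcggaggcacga
Rps24: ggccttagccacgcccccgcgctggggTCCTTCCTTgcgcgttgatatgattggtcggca
Rpl13a: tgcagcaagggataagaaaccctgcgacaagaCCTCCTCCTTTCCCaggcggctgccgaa
Rplp2: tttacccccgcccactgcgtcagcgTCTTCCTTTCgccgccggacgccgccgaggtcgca

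In these windows the run was 17 bases long in Rpl15, 14 in Rpl14 and Rpl13a, 10 in Rplp2, 9 in Rps24 and 7 in Rps21. In windows read but not shown it was shorter than in most of these, at 7 in Rps15, 6 in Rpl23, 5 in Rps16 and 4 in Rpl41. Of the 33 members with an entry in the promoter table, 17 had a run of at least 8 bases in the window (51.5%), against 25.8% of the genes in the table. Over the 300 bases of each promoter, on both strands, the letters CCGGAAG, the core bound by ETS factors, stood in 14 of the 33 (42.4%, against 9.93% of all genes). AAGATGG, the core of the YY1 site, which can share its first letters with the ETS core, stood in 5 of the 33 (15.2%, against 7.28%). TATAAA, the TATA box, stood in 3 of the 33 (9.09%, against 15.7%). These are matches of letters in the reference sequence, whereas the strains carry several founders' alleles.

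Averaged over the strains, none of the 35 kept members differed between tolvaptan and vehicle past the test. With limma and Benjamini-Hochberg adjustment over all kept genes, 0 of the 35 members were called at an adjusted p under 0.05, where 0.496% of all kept genes were called. An unadjusted p under 0.05 was found for 4 members (11.4%), against 9.56% of all kept genes. With strains as the unit, and with no strain by treatment term, limma also called 0 members. The difference was positive in 21 members and negative in 14, and its median was 0.0112 against 0.000268 for all kept genes. Without the off-strain arrays the median was 0.0047 against -0.0035, and limma called 0 members. The 95% intervals of all 35 members lay between -0.20 and 0.18 on the log2 scale.

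**Figure D1:**
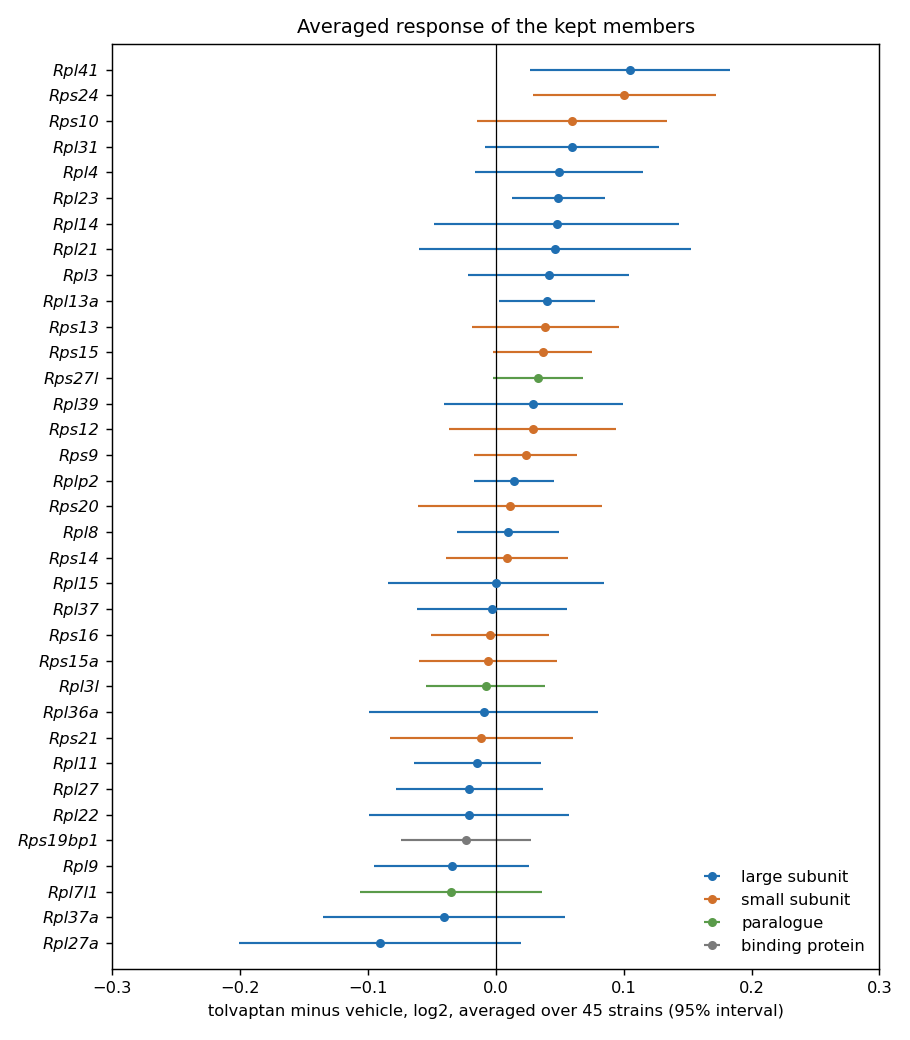
Tolvaptan minus vehicle on the log2 scale, averaged over 45 strains, for the 35 kept members (points) with 95% intervals (lines), coloured by ribosomal subunit. The points run from -0.09 (Rpl27a) to 0.10 (Rpl41 and Rps24), and 4 intervals lie above 0.

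Among the large-subunit proteins 12 of the 20 kept members had a positive difference and 8 a negative one, with a median of 0.012. Rpl41, the smallest ribosomal protein, had a lowest, median and highest value of 7.62, 8.72 and 11.1 over the 179 vehicle animals. Over the 175 tolvaptan animals it had 7.93, 8.76 and 11.2, so the groups overlapped over nearly their whole range. Its averaged difference was 0.10 ± 0.04 (SE, adjusted p = 0.281, limma), with a positive sign in 35 strains. This value comes from the brightest of its 3 probe sets, and the other 2 gave 0.01 and 0.02. Without the off-strain arrays the averaged difference of Rpl41 was 0.07 ± 0.03 (SE).

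Rpl23, which can bind the p53 regulator Mdm2, ranged from 11.3 through a median of 11.9 to 12.5 under vehicle and from 11.4 through 12.0 to 12.6 under tolvaptan. The difference was 0.05 ± 0.02 (SE, adjusted p = 0.281, limma), and it was -0.00033 in the arrays of scan 1 and 0.07 in those of scans 2 to 6. Rpl4, a protein of the exit tunnel, and Rpl31 differed by 0.05 ± 0.03 and 0.06 ± 0.03 (SE). Rpl13a, known for its part in a complex that silences translation in inflammation, differed by 0.04 ± 0.02 (SE). These differences are small beside the spread between animals, which was 0.23 (SD) for Rpl23 and 0.40 for Rpl4 under vehicle. The lowest large-subunit values were -0.09 ± 0.06 (SE) for Rpl27a, -0.04 ± 0.05 for Rpl37a, -0.03 ± 0.03 for Rpl9 and -0.02 ± 0.04 for Rpl22, a protein that cells can lose and that matters for T-cell development. Rplp2, part of the stalk that recruits elongation factors, differed by 0.01 ± 0.02 (SE).

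Of the 11 kept small-subunit proteins 8 had a positive difference and 3 a negative one, with a median of 0.023. Rps24, one of the genes mutated in Diamond-Blackfan anaemia, ranged from 3.22 through a median of 4.63 to 5.58 under vehicle and from 2.39 through 4.73 to 5.84 under tolvaptan. The tolvaptan range enclosed the vehicle range. The averaged difference was 0.10 ± 0.04 (SE, adjusted p = 0.251, limma), with a positive sign in 32 strains, and its other probe sets gave -0.08 and 0.01. Rps10, another anaemia gene, differed by 0.06 ± 0.04 (SE). The lowest small-subunit value was -0.01 ± 0.04 (SE), in Rps21.

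The paralogues and the binding protein were not called. Rps27l, a p53 target that resembles Rps27, differed by 0.03 ± 0.02 (SE). Rpl3l, the muscle counterpart of Rpl3, differed by -0.01 ± 0.02 (SE) with both group means near 2.46, below the typical array median. Rpl3 itself differed by 0.04 ± 0.03 (SE). Rpl7l1, which resembles Rpl7, differed by -0.03 ± 0.04 (SE), and Rps19bp1, also a regulator of the deacetylase SIRT1, by -0.02 ± 0.03 (SE).

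The arrays were scanned on 6 dates, numbered here by date, and scan 1 held 1 animal of every strain and treatment. The median member difference was 0.0043 in scan 1, 0.011 in scan 2, 0.044 in scan 3, 0.020 in scan 4 and -0.0057 in scan 5. A positive difference was found in 27 of the 35 members in scan 3 (77.1%, against 47.8% of all kept genes) and in 20 in scan 1 (57.1%, against 58.7%). No member was called by limma in any of these 5 scans, while 32 of all kept genes were called in scan 3 and 0 in the other four. An unadjusted p under 0.05 was found for 0, 8, 9, 3 and 1 of the 35 members in scans 1 to 5, against 2.53%, 6.12%, 8.17%, 5.93% and 3.77% of all kept genes. Scan 6 held both groups in 1 strain only. Without scan 3 the median member difference was 0.00013, against 0.0112 with all arrays.

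Genes that work with the ribosomal proteins gave no call either. Limma called 0 of 15 kept translation factors and other messages with a pyrimidine start, with a median difference of 0.018; the highest was Nap1l1 at 0.14 ± 0.04 (SE, adjusted p = 0.0827), and Hnrnpa1 had 0.05. It called 0 of 42 ribosome assembly genes (27 higher and 15 lower, median 0.016). The largest differences were Nop58 at 0.15 ± 0.07 and Nolc1 at 0.09 ± 0.05, and the lowest value was Wdr12 at -0.09 ± 0.03 (SE). Limma called 0 of 24 mTOR and MYC regulators (median 0.020), led by Myc at 0.20 ± 0.07 (SE, adjusted p = 0.212) and Larp4 at 0.06. It called 0 of 71 mitochondrial ribosomal proteins (median -0.0014), with Mrpl1 at 0.09 ± 0.04 and Mrps25 at -0.08 ± 0.03 (SE). The unadjusted limma p was under 0.05 in 2 of 15, 7 of 42, 4 of 24 and 4 of 71 of these genes, against 9.56% of all kept genes. Of the marker lists of liver and other cell types, 0 of 11 hepatocyte genes were called. The single calls among the markers were Stab2 of sinusoidal endothelium, 0.19 lower, and Cela2a of exocrine pancreas, 0.23 higher. Of the sinusoidal list 3 of 10 genes were higher and 7 lower (median -0.043), and of the pancreas list 3 of 8 were higher and 5 lower (median -0.013). Of the stellate cell and fibroblast list 8 of 9 were lower (median -0.061), with 0 called by limma and 2 at an unadjusted p under 0.05. The part of these lists in the members' values was not tested. In bulk liver, fewer cells of a type and less RNA per cell cannot be told apart.

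Whether the response differed between strains was tested directly. No member passed: limma's F test called 0 of 35, where 0.0212% of all kept genes were called. An unadjusted p under 0.05 was found for 2 members (5.71%), against 6.78% of all kept genes. These were Rpl11, which with Rpl5 restrains Mdm2 (p = 0.0159, adjusted p = 0.595, limma), and Rps12 (p = 0.0423, adjusted p = 0.715, limma). Next came Rpl21 (p = 0.0590), Rpl23 (p = 0.0750), Rps21 (p = 0.138) and Rpl7l1 (p = 0.184), all unadjusted limma values. For Rpl11 the strain differences ran from -0.53 in AU8027 to 0.38 in OR3252, and both its group means were below the array median. For Rps12 they ran from -0.51 in OR3609 to 0.94 in OR13140.

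The median over the 35 members lay between -0.09 and 0.14 in the single strains, with an SD over strains of 0.054, and was positive in 28 of 45 strains. It was highest in OR3154 (0.14, with 29 of 35 members positive), OR5035 (0.13, 28 positive), OR5119 (0.09, 23 positive) and AU8018 (0.08, 22 positive). It was lowest in AU8021 and OR5391 (both -0.09), IL16012 and OR3609 (both -0.07), where 11, 11, 11 and 13 members were positive. Over all kept genes the same strains had medians between -0.08 (IL16012) and 0.02 (OR3609). Single animals moved these medians. OR3154 had 0.07 without vehicle animal 233, OR5119 had 0.03 without vehicle animal 362 or 363 and 0.17 without vehicle animal 361, and AU8018 had 0.03 to 0.06 without any one animal. AU8021 ran from -0.14 to -0.04 and OR5391 from -0.11 to -0.04 in the same way. IL16012 changed sign to 0.0092 without tolvaptan animal 417, and had -0.15 without tolvaptan animal 415. OR3609 had -0.02 without vehicle animal 444 and -0.01 without tolvaptan animal 447.

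**Figure D2:**
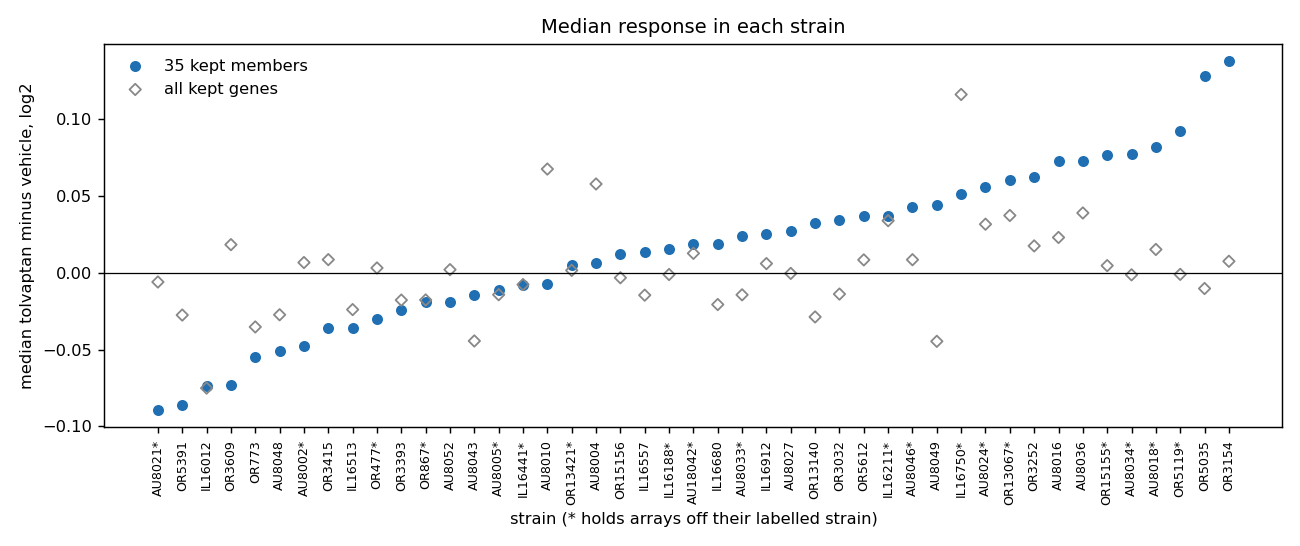
Median tolvaptan minus vehicle difference (log2) in each of the 45 strains over the 35 kept members (filled circles) and over all kept genes (open diamonds), ordered by the former. The member medians run from -0.09 in AU8021 to 0.14 in OR3154.

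Tests within single strains gave 5 calls among the 1575 pairs of member and strain (0.317%), where 0.281% of all pairs of gene and strain were called. They lay in 4 strains and concerned 5 genes. These tests borrow the residual spread of all strains, and each is described by its animals.

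Rpl23 in strain OR5119 was the call that depended least on single animals. The vehicle animals had 11.5, 11.7, 11.9 and 11.9, and the tolvaptan animals 11.9, 12.4, 12.5 and 12.6. The groups met at 11.9 (11.92 for the highest vehicle and the lowest tolvaptan animal). The difference was 0.61 ± 0.12 (SE, adjusted p = 0.000629, limma), in a strain where 1.90% of all kept genes were called. Leaving out each of the 8 animals gave 0.52 to 0.73, all called. Without scan 1 it was 0.53 and not called (adjusted p = 0.119); over all 15 settings the adjusted p lay between 0.00048 and 0.119. Rpl13a in the same strain had 11.6, 11.7, 11.7 and 12.5 under vehicle and 11.8, 12.4, 12.4 and 12.5 under tolvaptan, which overlap through vehicle animal 361; vehicle animal 364 was an off-strain array. Its difference was 0.43 ± 0.13 (SE, adjusted p = 0.0457, limma), and it was no longer called without any one of 6 of the 8 animals (362, 363, 364, 365, 367 or 368; 0.32 to 0.42).

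Rpl7l1 in AU8049 showed a split among the treated animals. The vehicle animals had 7.95, 7.99, 8.10 and 8.15. Of the tolvaptan animals, 345 and 346 had 5.77 and 5.67, while 347 and 348 had 8.17 and 8.22, above every vehicle animal. The difference was -1.09 ± 0.24 (SE, adjusted p = 0.00104, limma), in a strain where 5.40% of all kept genes were called. It was -0.72 without animal 345 and -0.68 without animal 346, neither called, and 0.26 without scan 3, which held both. Without scan 3 only vehicle animal 344 and tolvaptan animal 348 were left.

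The other 2 calls came from strains that held off-strain arrays. Without these arrays the Rps21 difference nearly vanished, while the Rpl21 difference was smaller and not called. Rps21 in OR13421 had 12.1 and 11.9 in the off-strain arrays of vehicle animals 111 and 112, against 10.1 and 9.68 in the other two vehicle animals. The tolvaptan animals had 9.65 to 9.95, between or just below the latter. The difference of -1.17 ± 0.24 (SE, adjusted p = 0.00224, limma; 0.255% of all kept genes called in this strain) became -0.08 without the off-strain arrays. It was -0.79 without animal 111 and -0.85 without animal 112, neither called, and 0.27 without scan 2. Without scan 2 only vehicle animal 114 and tolvaptan animal 118 were left. Rpl21 in AU8024 had 3.02, 3.25, 4.18 and 5.78 under vehicle and 2.24, 2.32, 2.78 and 2.79 under tolvaptan. The highest of these, vehicle animal 62, was an off-strain array, as were vehicle animal 61 and tolvaptan animal 65. The difference of -1.53 ± 0.36 (SE, adjusted p = 0.0173, limma; 0.566% of all kept genes called) was -1.06 without such arrays, -0.91 without animal 62 and -1.50 without tolvaptan animal 68, none of them called.

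Differences between strains passed the test in most members. Under vehicle 29 of the 35 kept members differed between strains (82.9%, limma F test), where 74.9% of all kept genes did. Of the 20 large-subunit members 16 were called, of the 11 small-subunit members 9, and all 3 kept paralogues and Rps19bp1. The gap between the highest and lowest strain mean had a median of 1.02 over the members, against 1.06 over all kept genes. A gap of at least 2, a 4-fold difference, was found in 6 members (17.1%), where 11.4% of all kept genes had one. Strain and scan date were partly tied, and without a term for scan 25 members were called, with 72.7% of all kept genes.

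**Figure D3:**
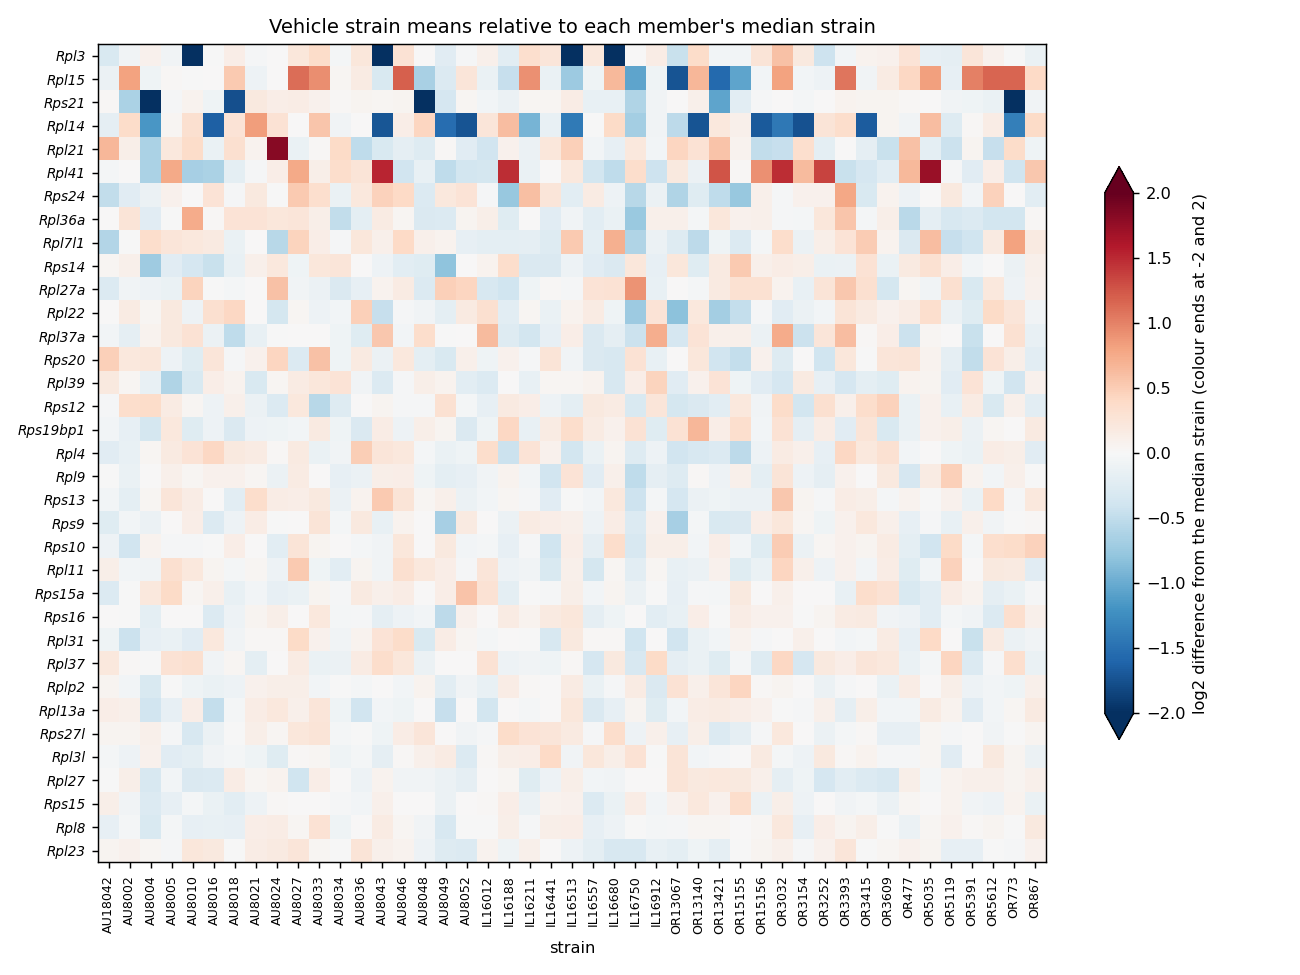
Vehicle mean of each of the 45 strains (columns) relative to the median strain of each of the 35 kept members (rows, widest range on top), on the log2 scale. Blue is lower and red higher than the median strain; the deep colours are held by the first 6 rows, and Rpl3 and Rps21 are low in a few strains only.

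Rpl3, which reaches the peptidyl transferase centre, had the widest range and split the strains into separate groups. In AU8010 the vehicle animals had 6.55 to 7.23 and the tolvaptan animals 6.90 to 7.32. In AU8043 they had 6.89 to 7.85 and 5.74 to 7.37, in IL16513 7.17 to 7.61 and 7.21 to 7.78, and in IL16680 6.82 to 7.60 and 7.42 to 7.86. All 32 animals of these 4 strains, vehicle and treated, lay between 5.74 and 7.86, and all 322 animals of the other 41 strains between 8.54 and 10.97. The groups did not overlap, and the 4 strains held no off-strain array. The fitted vehicle means ran from 6.93 in AU8010 to 10.52 in OR3032, a range of 3.59 (12.0-fold; adjusted p = 2.63e-70, limma F test, from 1.31e-76 to 1.77e-41 over the alternatives). The gap between the 4 strains and the next, OR13067, was 2.08 under vehicle and 1.97 between the same groups under tolvaptan. Among the 4 low strains and among their 41 neighbours the means ran on without such a gap.

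Rps21, a small protein of the small subunit, had a similar low group of strains. In AU8004 the 8 animals had 8.86 to 9.70, in OR773 8.88 to 9.67 and in AU8048 9.43 to 9.95. In AU8018 the 2 off-strain arrays had 11.8 (vehicle) and 11.8 (tolvaptan), and the others 9.50 to 9.77. Without the off-strain arrays, 5 strains were low, OR13421 being the fifth, with 35 animals between 8.86 and 10.07. The gap to the next strain was then 1.73 under vehicle and 1.11 under tolvaptan, and the other 285 animals lay between 9.85 and 12.36. The overlap came from 3 tolvaptan animals that matched their labelled strains: 135 and 136 of OR15155 at 10.01 and 10.03, and 16 of OR867 at 9.85. The range of the fitted vehicle means was 2.87, from 9.22 in AU8004 to 12.09 in AU8021 (7.30-fold; adjusted p = 5.88e-49, limma F test, from 1.2e-87 to 1.27e-19 over the alternatives).

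**Figure D4:**
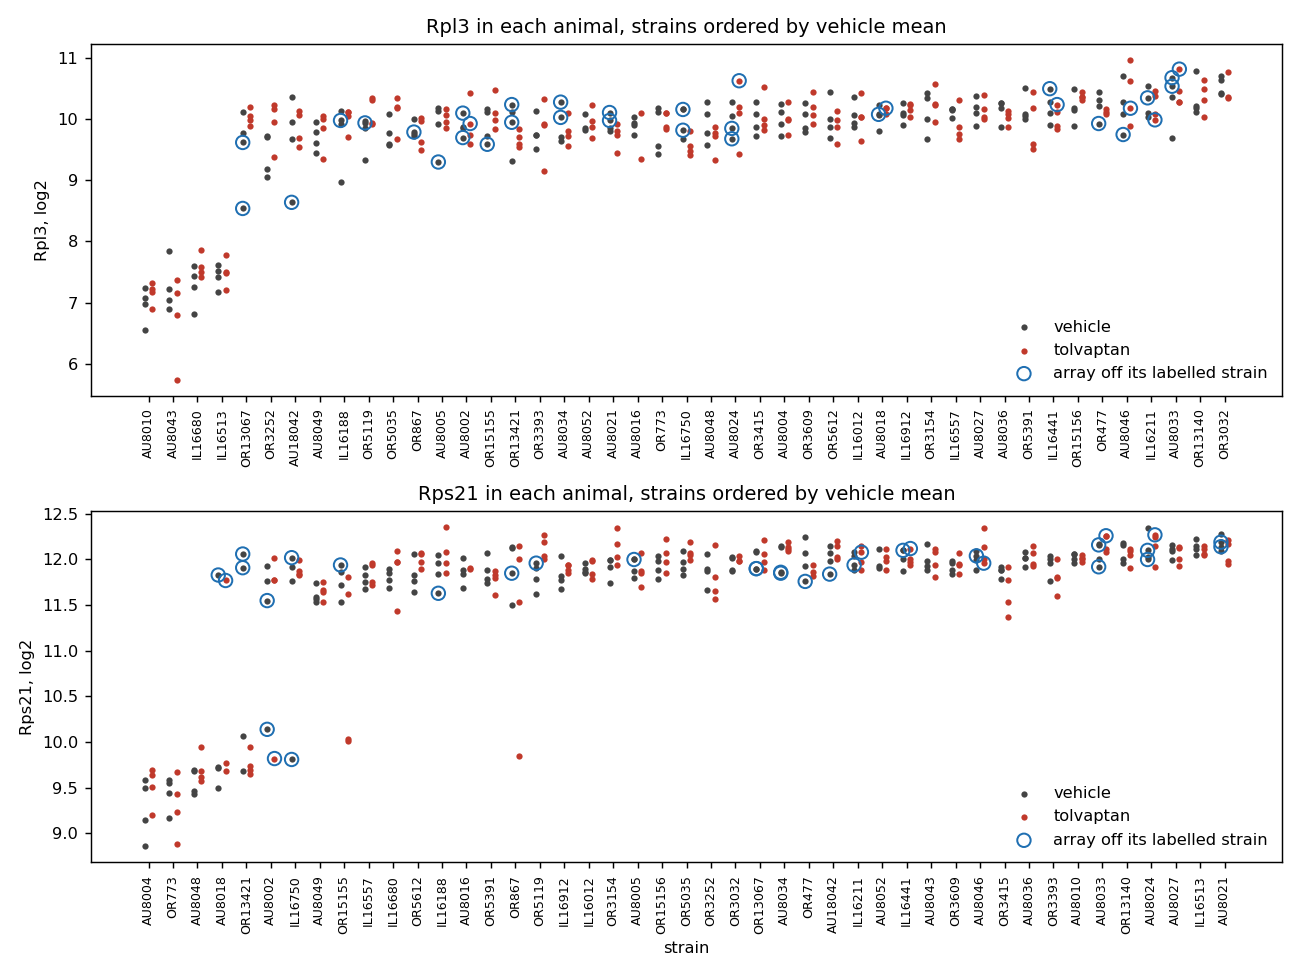
Log2 value of Rpl3 (top) and Rps21 (bottom) in each animal, by strain in order of the vehicle mean, with vehicle animals in grey, tolvaptan animals in red and a blue ring around off-strain arrays. In the Rpl3 panel 4 strains lie at 5.74 to 7.86, apart from all others; in the Rps21 panel high and low values that stand alone in AU8018 and IL16750 carry a ring.

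Rpl15, a large-subunit gene also mutated in Diamond-Blackfan anaemia, came next in range. The fitted vehicle means ran from 5.50 in OR13067 to 8.43 in AU8046, a range of 2.92 (7.59-fold; adjusted p = 2.18e-36, limma F test). The next lowest strain was OR13421 at 5.67, and the largest gap in the order, above these strains, was 0.51, or 0.72 without the off-strain arrays. In OR13067 the vehicle animals had 5.18 to 6.34 and the tolvaptan animals 5.18 to 5.97; in OR773 they had 8.05 to 8.73 and 8.40 to 8.63. Without the off-strain arrays the range was 3.35. In the 26 strains free of such arrays, which leave out OR13067 and OR13421, it was 1.81. Single animals overlapped. Without the off-strain arrays, 12 animals of OR13067 and OR13421 had 5.12 to 6.14 and the other 308 animals 5.40 to 8.74.

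The strain means of Rpl14 fell into a dim and a brighter set once the off-strain arrays were left out, while single animals overlapped. With all arrays the fitted vehicle means ran from 2.29 in OR3154 to 4.86 in AU8021, a range of 2.57 (adjusted p = 2.06e-40, limma F test), and the largest gap in the order was 0.27. Without the off-strain arrays, 14 strains had means of 2.28 to 2.91 and the other 31 strains 3.65 to 4.79, a gap of 0.74, and the same 14 strains were low under tolvaptan. The 104 animals of the lower set had 1.84 to 3.65 and the 216 of the upper set 2.19 to 5.40. The means of the lower set lay at or below the level of a typical probe set (2.89), near background.

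Rpl41 had means from 8.10 in AU8010 to 10.50 in OR5035, a range of 2.40 (5.26-fold; adjusted p = 3.36e-39, limma F test). The means of the 6 highest strains were set off by a gap of 0.34. Their 47 animals (8.89 to 11.18) overlapped the other 307 (7.62 to 10.36). The other 2 probe sets of Rpl41 followed the strains weakly (r = 0.27 and 0.22 over 45 strain means). The range was 1.37 when the probe sets of Rpl41 were averaged. Rpl21 ranged over 2.45, from 1.91 in AU8004 to 4.36 in AU8024, and the next highest strain was AU18042 at 3.21. Without the off-strain arrays, animal 62 among them, the range was 1.95 and still called (adjusted p = 0.0185, limma F test). In the 26 strains, which leave out AU8024, it was 1.32 and not called (adjusted p = 0.0844, limma F test; lowest over the alternatives 7.35e-05).

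**Figure D5:**
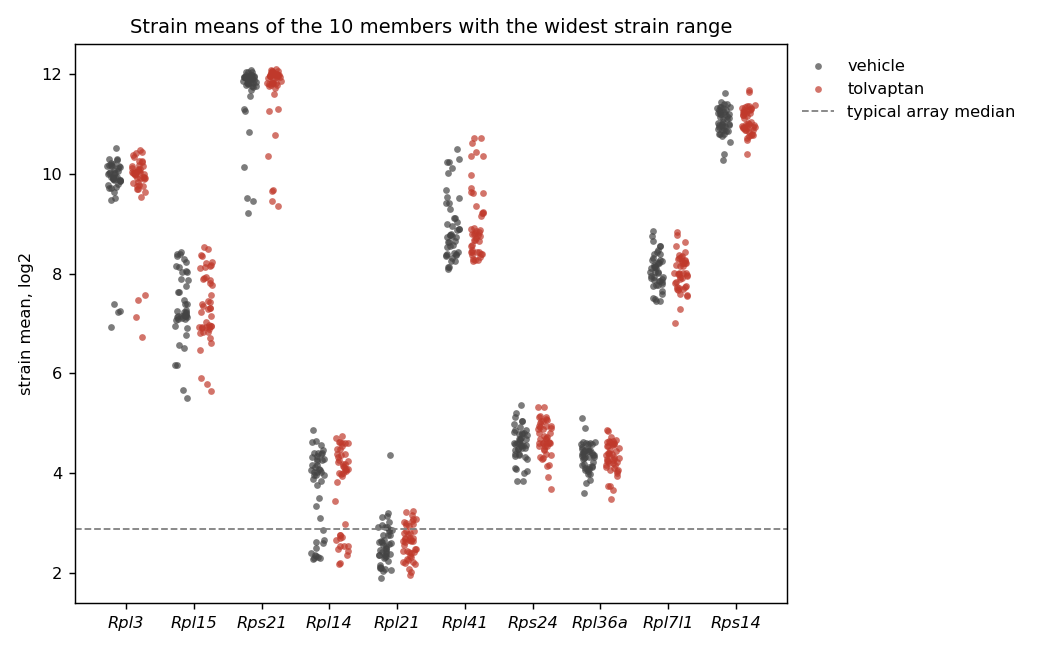
Fitted strain means (log2) of the 10 members with the widest strain range, 45 vehicle means (grey) and 45 tolvaptan means (red) for each, with the typical array median dashed. The 4 low strains of Rpl3 stand apart by 2.08 under vehicle and 1.97 under tolvaptan; with all arrays the largest gap in the vehicle order is 0.70 in Rps21, 0.51 in Rpl15, 0.34 in Rpl41 and 0.27 in Rpl14.

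The strain pattern recurred in the treated animals, which are separate mice. Over the 45 strains the vehicle and tolvaptan means of Rpl3 correlated at 0.97, those of Rpl41 at 0.96, Rps21 at 0.93, Rpl15 at 0.92 and Rpl14 at 0.91. For Rpl21 the value was 0.40. Without the off-strain arrays it was 0.53 for Rpl21, and from 0.93 (Rpl14) to 0.98 (Rpl41) for the others. The vehicle and treated means of a strain share the scan adjustment and the probe set. These members were picked for their wide vehicle range, and no such correlation over all kept genes is given for comparison. Rpl3, Rps21, Rpl15 and Rpl14 had 1 probe set each, so no other probe set could be compared.

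Below these came Rps24 (range 1.53), Rpl36a (1.49), Rpl7l1 (1.40) and Rps14 (1.33), a gene lost in a form of myelodysplastic syndrome. For Rps14 the lowest strain was AU8049 at 10.29 and the highest OR15155 at 11.62. Rps24 was no longer called when its 3 probe sets were averaged (0.88, adjusted p = 0.116, limma F test; lowest over the alternatives 8.53e-09). Rpl36a was no longer called in the 26 strains, without scan 1 or without scan 3 (1.23, 1.41 and 1.51; adjusted p from 0.0066 to 0.208 over the alternatives, limma). For Rpl7l1 another probe set ranged over 4.62 between strains and ran against the used one (r = -0.59 over 45 strain means). The narrowest ranges belonged to bright members, 0.58 in Rpl23, 0.62 in Rpl8 and 0.63 in Rps15, with strain means of Rpl23 between 11.58 and 12.16.

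Some of the genes whose vehicle strain means followed these members most closely lay on the same chromosome in RefSeq. This rule was set after seeing the values, and the values are a description over 45 strains. For Rpl3 they were Nol12 (r = -0.73), Syngr1 (-0.69), Apol7a (0.64), Ly6e (0.64) and Echdc3 (0.60). Of these 5, 4 lie on the chromosome of Rpl3, which holds 4.07% of the kept genes. Syngr1 is the next kept neighbour of Rpl3, while Nol12, Apol7a and Ly6e lie 31, 59 and 121 kept genes away. Without the off-strain arrays Nol12 had -0.60 and Syngr1 -0.67. No such count is given for other genes that vary between strains. For Rps21 all 5 lie on its chromosome (7.87% of the kept genes), 68 to 127 kept genes away, led by Wfdc3 (r = -0.77) and Trp53rkb (-0.69), which without the off-strain arrays had -0.48 and -0.52. For Rpl14 all 5 also lie on its chromosome (5.55%), 1 to 32 kept genes away, led by 1110059G10Rik (r = -0.75). For Rpl15, Rpl21 and Rpl41 the counts were 1, 1 and 2 of 5, and the closest gene to Rpl15 was Thoc7 (r = 0.88), on the same chromosome and 10 kept genes away.

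Correlations between pairs of members had low medians, and no value for pairs of other genes is given for comparison. Over the 354 animals, after strain, treatment and scan means were removed, the correlation between pairs of the 35 members had a median of 0.036 and ran from -0.40 to 0.66. Among the 12 members with a mean of at least 9 the median was 0.11. Over the 45 vehicle strain means the medians were 0.038 and 0.15. For the 9 brighter members outside the 10 widest strain ranges the median over strain means was 0.22. The 35 members include 9 with both group means below the typical array median. These correlations share arrays, and the mean of the 12 brighter members correlated with the array's 75th percentile at 0.17 and with its spread in relative log expression at -0.16 over the 354 arrays.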

How the data were processed

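The deposited values are log2 probe-set intensities. The submitters' processing notes name RMA and the Affymetrix Expression Console as tools, with no version. The table held 42597 probe sets, 27691 with 1 gene symbol. Each animal had 1 array, so the spread includes that between animals, and precision is limited by how many arrays there are. With limma 3.58.1 in R 4.3.3, a mean for every pairing of strain and treatment, plus scan, was fitted on all kept genes. Tests were two-sided at an adjusted p of 0.05 (Benjamini-Hochberg over all kept genes, within each strain for single strains). The members, gene lists, tests and alternatives were chosen with earlier results of these data known. The genes named are the 6 largest rises and 6 largest falls, up to 6 with the lowest interaction p, the 10 widest strain ranges, up to 4 called members in each of the 4 strains with the highest and the 4 with the lowest median, the paralogues and listed subunits, and up to 4 called or the 2 largest of each pathway list. Members called in other strains, leaving out their single animals, gaps without off-strain arrays, and genes alike over strains were added after seeing the data. RefSeq tables of GRCm38.p6 gave promoters and gene order; the build behind the array annotation is not given in the sources used here.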

Additional observations from a re-analysis of the deposited data

Results flagged for a closer look

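In 67 groups of 4 animals, taken from the strains and members described above, a lone value stood far from the other three in 4, where chance flags about 1 in 20 groups. Rpl15 in AU8046 was 7.45 in vehicle animal 323, an off-strain array, against 8.48 to 8.68 in the other vehicle animals. Rpl14 in AU8021 was 4.15 in vehicle animal 54, against 5.0 to 5.10 in the others, of which animals 51 and 52 were off-strain arrays. Rpl13a in OR5119 was 12.5 in vehicle animal 361, the only one of the 4 from scan 6, against 11.6 to 11.7. Rps21 in AU8018 was 11.8 in vehicle animal 212, an off-strain array, against 9.50 to 9.73.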

How the results depend on the processing

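Under all alternatives limma called 0 members for the averaged difference (18 settings) and 0 for a response that differs between strains (16 settings), and the members called for vehicle strain differences numbered 21 to 29, where 59.9% to 88.2% of all kept genes were called. Calls in single strains numbered 5 with all arrays, 1 in the 26 strains free of off-strain arrays, 12 without scan 2 and 3 without scan 3. The 26 strains leave out OR5119, OR13421 and AU8024, so of the 5 calls only Rpl7l1 in AU8049 could recur there. The median member difference stayed positive, from 0.00013 to 0.026. Signs turned only in small or scan-bound values. Rpl22 was 0.0027 without the off-strain arrays, 0.023 without scan 2, 0.030 without scan 3 and 0.00091 with probe sets averaged. Rpl9 was 0.0021 without scan 2, and Rps19bp1 was 0.012, 0.0022 and 0.0070 without scans 2, 3 and 4. Rpl7l1 in AU8049 was 0.26 without scan 3 and Rps21 in OR13421 was 0.27 without scan 2. Each of these compares 1 vehicle with 1 tolvaptan animal, the only ones left in the strain. The cause was not tested. No paired analysis was possible because the labels number the animals through the whole study, so vehicle and tolvaptan animals share no number. For the 13 members with dim probe sets, little can be said of strain differences, since their signal lies near background.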
